A study of Mus musculus with 8 samples.

Results

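The 37 genes described here are mainly those of the enzymes that make cholesterol and fatty acids from acetyl-CoA. With them are the genes of the SREBP proteins and of their partners that set the activity of both routes. The list also holds Nr1h3, which encodes LXR alpha, the cholesterol exporters Abca1 and Abcg1, and Mylip, a gene induced by LXR. All were chosen by gene symbol from the known pathways. Of these 37 genes, 33 had a probe set named here, out of 19505 genes named on the array. The signals of Acat2, Tm7sf2, Srebf1 and Scd2 were not analysed here.

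RNA was measured in RAW264 cells, a mouse macrophage-like line, on 8 Clariom S arrays. The 4 groups were Gpr137b -/- (KO) cells with IL-4, Gpr137b +/+ (WT) cells with IL-4, KO cells without IL-4 and WT cells without IL-4, with 2 arrays in each. Both genotypes came from CRISPR/Cas9 cloning and each is made up of 2 clones, KO1 and KO2 against WT1 and WT2, so that every clone has 1 array with IL-4 for 48 h and 1 without. IL-4 is a cytokine that drives macrophages to the alternatively activated state. Its addition went with a change to serum-deprived medium containing BSA. Whether the cells kept without IL-4 also changed medium is not given, and the effect of IL-4 and that of the medium cannot be told apart. Genotype and clone cannot be told apart either. Arrays of bulk RNA also cannot tell fewer cells of a type from less RNA per cell.

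Cholesterol is built from acetyl-CoA through mevalonate, isoprenoids, squalene and lanosterol. When sterol is scarce in the endoplasmic reticulum, Scap escorts SREBP to the Golgi, where it is cleaved and freed to enter the nucleus. When sterol is plentiful, Insig proteins hold the Scap and SREBP complex back. SREBP2 mainly drives the cholesterol genes and SREBP1 the fatty acid genes, while oxysterols turn on LXR, which drives export of cholesterol. In macrophages this balance is known for its part in foam cell formation and in lipid mediator production.

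SREBP binds sterol regulatory elements, and NF-Y, a factor that binds the CCAAT box, is known to assist it. The promoter windows of RefSeq (GRCm38.p6, 250 bases before to 50 after the start of the gene) were searched on both strands for 3 sequences. These were the sterol regulatory element TCACNCCAC, the NF-Y box CCAAT and the E-box CACGTG, none of which contains another. A window was held for 30 of the 37 genes. The NF-Y box was found in 22 of these 30 (73.3%), against 41.1% of all 27025 genes with a window and 43.2% of the 6493 genes whose signal was above background on all arrays. By step, it was found in 5 of 6 mevalonate genes, 9 of 9 genes from squalene to cholesterol, 4 of 5 genes of SREBP regulation, 1 of 3 LXR genes and 3 of 7 fatty acid genes. These sets are not the same as the measured genes of each step. They include Tm7sf2 and Srebf1, whose signals were not analysed, and no window was held for Sqle. In a further list of genes of the same routes, described below, the NF-Y box was found in 17 of 21 with a window (81.0%). The E-box was found in 6 of 30 (20%), against 8.09% of all genes and 12.8% of those above background. The sterol regulatory element in these exact letters was found in Hmgcs1 alone among the 30, against 1.44% of all genes. Genes with several windows, such as Dhcr7 and Insig2, had more chances of a match, and a match of letters is not a measured binding site.

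Stretches just before the start are shown for 3 cholesterol genes with matches and for 3 of the fatty acid genes among the 37: Elovl6 and Fads2, which differed between the WT clones, and Lpin1, which had the largest IL-4 difference. Each is on the strand of the gene, with the matched letters in capitals. Hmgcs1 lies on chr13:119690201-119690350 (plus strand), Idi1 on chr13:8885506-8885605 (plus), Cyp51 on chr5:4104698-4104797 (minus), Elovl6 on chr3:129532286-129532385 (plus), Fads2 on chr19:10101504-10101603 (minus) and Lpin1 on chr12:16610967-16611066 (minus).
Hmgcs1: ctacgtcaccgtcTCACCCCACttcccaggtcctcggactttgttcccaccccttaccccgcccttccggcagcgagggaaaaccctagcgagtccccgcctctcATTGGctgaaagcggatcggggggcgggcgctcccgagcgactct
Idi1: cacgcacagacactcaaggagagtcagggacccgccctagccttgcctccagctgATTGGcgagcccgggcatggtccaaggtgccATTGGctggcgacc
Cyp51: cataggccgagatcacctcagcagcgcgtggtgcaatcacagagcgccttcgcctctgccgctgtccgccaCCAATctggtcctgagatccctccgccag
Elovl6: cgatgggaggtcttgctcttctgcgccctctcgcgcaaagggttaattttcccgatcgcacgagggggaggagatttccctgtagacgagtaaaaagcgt
Fads2: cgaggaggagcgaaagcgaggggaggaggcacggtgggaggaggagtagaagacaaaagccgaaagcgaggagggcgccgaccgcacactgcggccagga
Lpin1: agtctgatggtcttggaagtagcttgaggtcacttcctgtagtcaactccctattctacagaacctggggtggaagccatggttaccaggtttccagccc
Hmgcs1 carries the sterol regulatory element first and an NF-Y box, read as its reverse ATTGG, closer to the start. Idi1 carries a pair of such boxes and Cyp51 one in the forward direction. None of the searched letters stood in the windows of Elovl6, Fads2 and Lpin1, which says nothing about which factors bind there.

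Signals are log2 values of the SST-RMA intensities, so that 1 unit is a doubling. Probe sets differ in how brightly they bind, and levels are compared between arrays and never between genes. The background of an array, set at the 95th percentile of the signals of 23 antigenomic controls, lay between 6.64 and 6.78, and 42.8% to 43.8% of all probe sets were above it. Of 10 macrophage markers 9 were measured, and all 9 were above background on all 8 arrays (10.97 to 18.95). Cd3e, Epcam, Col1a1, Pecam1 and Myod1, markers of other cell types, were below it on all 8 (3.49 to 6.53). Mgl2, a C-type lectin gene known as an IL-4 marker, stood at 15.51, 15.81, 15.95 and 15.24 with IL-4 in KO2, KO1, WT2 and WT1, against 8.49, 9.14, 9.50 and 8.44 without. For Gpr137b itself the KO minus WT difference was -0.72 with IL-4 (adjusted p = 1.00 from limma) and -0.90 without (0.993). With IL-4 it stood at 10.82, 9.997, 11.93 and 10.32 in KO2, KO1, WT2 and WT1, so that WT1 lay below KO2. Without IL-4 both KO arrays (11.12 and 10.24) lay below both WT arrays (11.67 and 11.50). The edited part of the gene is not given, so this probe set does not check the genotype labels.

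Of the 33 measured genes, 26 were above background on all 8 arrays. All but one of the mevalonate genes were among them: Hmgcs1, the cytosolic HMG-CoA synthase, lay between 12.22 and 12.68, Idi1, the isopentenyl diphosphate isomerase, between 11.07 and 12.41, and Fdps, the farnesyl diphosphate synthase, between 8.86 and 9.87. Mvk, the mevalonate kinase, was below background on all 8 arrays (5.63 to 6.59), while Pmvk and Mvd, which act on its product, were above it (7.42 to 8.28 and 8.87 to 10.27). All 9 measured genes of the stretch from squalene to cholesterol were above background on every array, from Sqle, the squalene epoxidase (11.01 to 11.56), to Dhcr7, which carries out the last reduction (9.98 to 11.27). The steadiest of the 26 was Sc5d, the sterol C5 desaturase, whose 8 arrays spanned 0.26.

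The SREBP group was also detected throughout. Srebf2, the gene of SREBP2, lay between 14.05 and 14.82, Scap between 9.42 and 10.43, Insig1 between 11.46 and 12.16, Insig2 between 7.54 and 8.75, and Stard4, a cytosolic sterol carrier, between 8.99 and 9.78. The LXR group was the opposite. Abca1 and Abcg1, the cholesterol exporters, and Mylip, a ubiquitin ligase gene induced by LXR, were below background on all 8 arrays, and Nr1h3, which encodes LXR alpha, was above it on 1 array only, KO2 with IL-4 (7.30). Among the fatty acid genes, Acly, the ATP-citrate lyase, Acaca, the acetyl-CoA carboxylase, Fasn, the fatty acid synthase, Elovl6, the elongase of palmitate, the desaturases Fads1 and Fads2, and Lpin1, a phosphatidate phosphatase and coactivator, were detected throughout. Scd1, a stearoyl-CoA desaturase, was below background on all 8 arrays (5.23 to 6.23), and Acss2, an acetyl-CoA synthetase, was above it on 1, KO1 with IL-4 (6.98). Differences of these 7 genes between arrays lie mostly under the background, and the genes enter the counts only as such.

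**Figure D1:**
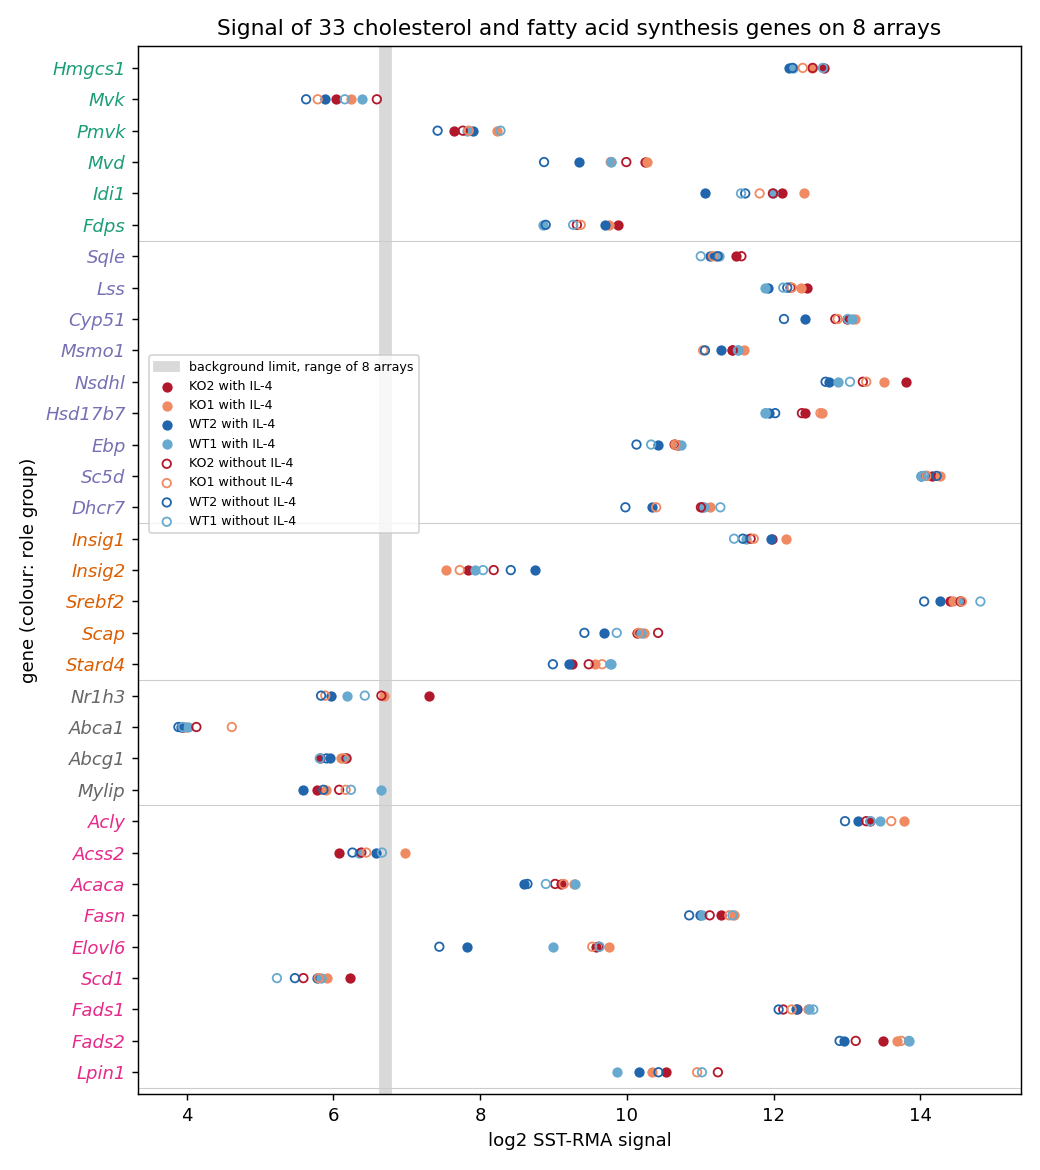
Each row is a gene, coloured by its step (from the top: mevalonate pathway, squalene to cholesterol, SREBP regulation and sterol transport, LXR and efflux, fatty acid synthesis), and each point is its log2 SST-RMA signal on 1 of 8 arrays; filled points are with IL-4, open points without, and the grey band is the range of the background limit, 6.64 to 6.78. Of the 33 genes 26 lie right of the band on all 8 arrays, and the open and filled blue points of WT2 are set apart from the rest for Elovl6, Fads2 and Cyp51.

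With IL-4 no gene of either pathway passed the test. None of the 33 was under the threshold of 0.05 on the adjusted p from limma for the effect averaged over WT and KO clones, against 37 of all 22206 probe sets (0.167%), and with clones as a block none of the 33 passed against 128 probe sets (0.576%). At an unadjusted p under 0.05 there were 2 of 33, Lpin1 and Scd1, against 4.61% of all probe sets. The median effect over the 33 genes was 0.10, with -0.01 over all probe sets, and ran from -0.69 to 0.41. By clone the median was 0.05 in KO2, 0.15 in KO1, 0.21 in WT2 and -0.0024 in WT1. In 6 of 33 genes (18.2%) all 4 clones moved the same way, against 16.4% of all probe sets, with Scd1, Insig1, Ebp, Cyp51 and Acly higher and Lpin1 lower.

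Lpin1 had the largest effect. It stood at 10.53 in KO2, 10.35 in KO1, 10.16 in WT2 and 9.87 in WT1 with IL-4, against 11.24, 10.96, 10.43 and 11.02 without. The signal was lower with IL-4 in every clone, by 0.71 in KO2, 0.61 in KO1, 0.27 in WT2 and 1.16 in WT1, although WT2 without IL-4 lay below KO2 with IL-4. The averaged difference was -0.69 (SE 0.185, 95% interval -1.11 to -0.26, adjusted p = 0.482 from limma), and 0.340 with clones as a block. It did not pass, and leaving out WT2 or WT1 gave -0.91 and -0.46.

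Insig1, which holds SREBP back and is itself an SREBP target, was the only regulator that moved alike in all clones. Its signal was 11.98, 12.16, 11.96 and 11.63 with IL-4 in KO2, KO1, WT2 and WT1, against 11.69, 11.73, 11.58 and 11.46 without. The 3 highest of the 8 values were with IL-4, and the difference of 0.32 (SE 0.151, interval -0.02 to 0.66) did not pass (adjusted p = 1.00 from limma). Ebp, the sterol isomerase, differed by 0.19 (interval -0.15 to 0.53), at 10.70, 10.67, 10.42 and 10.74 with IL-4, against 10.65, 10.66, 10.13 and 10.33 without, in the same order of clones. The effect was 0.01 to 0.05 in the KO clones and 0.29 to 0.41 in the WT clones. Cyp51, the lanosterol demethylase, differed by 0.18 (-0.34 to 0.71) and Acly by 0.13 (-0.29 to 0.55). These intervals all hold 0 and reach at most 0.71.

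**Figure D2:**
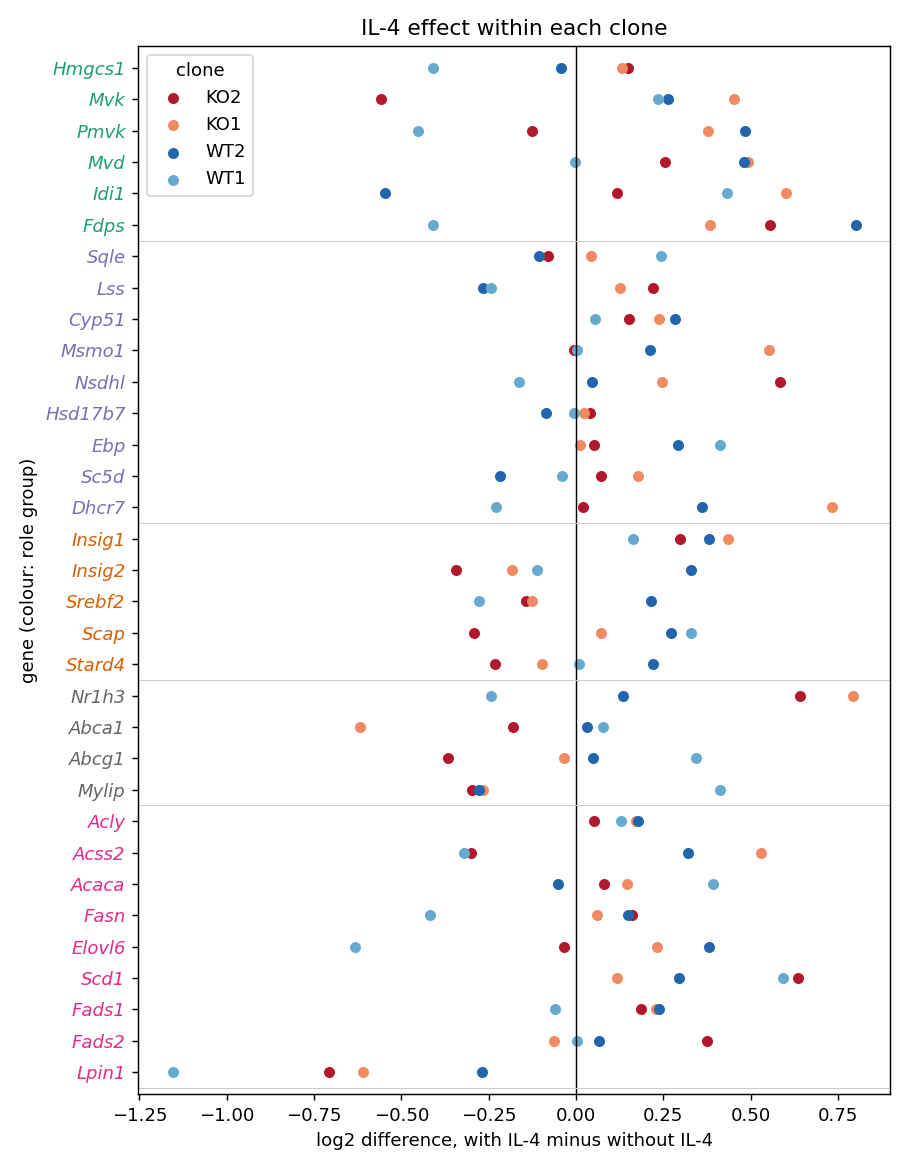
Each row is a gene, coloured by its step, and each point is the log2 difference with IL-4 minus without IL-4 in 1 clone (red KO2, orange KO1, dark blue WT2, light blue WT1). Most genes have points on both sides of 0, and Lpin1 is the only one with all 4 points left of it, from -0.27 to -1.16.

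Taken separately, the IL-4 effect passed for 0 of 33 genes in KO cells, against 7 of 22206 probe sets (0.0315%), and for 0 of 33 in WT cells, against 8 (0.036%). At an unadjusted p under 0.05 there was 1 gene of 33 in each, Lpin1, against 2.77% of all probe sets in KO and 3.85% in WT cells. The median effect was 0.11 in KO cells and 0.07 in WT cells. In KO cells both clones moved up in 18 of 33 genes (54.5%), against 26.1% of all probe sets, and down in 7 (21.2%), against 26%. Of these 18, 4 were mevalonate genes and 7 were genes from squalene to cholesterol. In WT cells both moved up in 12 of 33 (36.4%), against 21.6%, and down in 5 (15.2%), against 23.5%. Among the 26 detected genes, 16 moved up in both KO clones (61.5%), against 27.2% of detected probe sets, and 4 down (15.4%), against 29.5%, while 8 moved up in both WT clones (30.8%), against 27.8%, and 5 down (19.2%), against 19.9%. The effects behind these counts were small. The largest among detected genes in KO cells were -0.66 for Lpin1, 0.47 for Fdps, 0.42 for Nsdhl, the sterol dehydrogenase, and 0.38 for Dhcr7, all with an adjusted p of 1.00 from limma.

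Fdps shows how clones differed. It stood at 9.87 in KO2, 9.76 in KO1, 9.70 in WT2 and 8.86 in WT1 with IL-4, against 9.32, 9.37, 8.89 and 9.27 without, so that 3 clones were higher with IL-4 by 0.38 to 0.80 and WT1 was lower by 0.41. Idi1 was lower with IL-4 in WT2 alone (11.07 with, 11.61 without). Lss, which closes squalene epoxide to lanosterol, stood at 12.45, 12.38, 11.92 and 11.89 with IL-4 in KO2, KO1, WT2 and WT1, against 12.23, 12.25, 12.19 and 12.13 without. Its clones were close together without IL-4, and with it the KO clones were higher by 0.22 and 0.13 and the WT clones lower by 0.27 and 0.24. The difference of the IL-4 effect between genotypes passed for 0 of 33 genes and 0 of 22206 probe sets (0%), and at an unadjusted p under 0.05 for 0 of 33 and 338 probe sets (1.52%).

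The mean of the KO clones was above that of the WT clones in most of the genes, and none passed the test. With IL-4, 0 of 33 genes had an adjusted p under 0.05, against 7 of 22206 probe sets (0.0315%), and 5 had an unadjusted p under 0.05, against 3.53%. The KO minus WT difference was above 0 in 28 of 33 genes (median 0.24), against 52.9% of all probe sets (median 0.02), and in 24 of the 26 detected genes, against 49.0% of detected probe sets. In 14 genes (42.4%) both KO arrays were above both WT arrays, against 17.9% of all probe sets, and in 1, Insig2, both were below, against 15.3%. Without IL-4, 0 of 33 passed, against 4 of 22206 (0.018%), and 2 had an unadjusted p under 0.05, against 4.41%. The difference was above 0 in 27 of 33 genes (median 0.25), against 50.1% of all probe sets (median 0.00030), and in 21 of the 26 detected genes, against 53.2%, and the arrays did not overlap in 12 genes (36.4%), all higher in KO, against 14.1% higher and 16.3% lower among all probe sets.

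The size of this shift rested on WT2. Without WT2 the median difference of the 33 genes was 0.10 with IL-4 and 0.03 without, and without WT1 it was 0.28 and 0.44. Set pair by pair, the median with IL-4 was 0.29 for KO2 minus WT2 and 0.35 for KO1 minus WT2, and -0.04 for KO2 minus WT1 and 0.09 for KO1 minus WT1. Without IL-4 the same pairs gave 0.36 and 0.42 against WT2, and 0.10 and -0.04 against WT1. Without WT2 the KO arrays were both above WT1 in 14 genes and both below it in 11 with IL-4 (34.8% and 34% of all probe sets), and in 14 and 13 without (37.3% and 37.7%). Over the 26 detected genes the median with IL-4 was 0.36 for KO2 minus WT2 and 0.41 for KO1 minus WT2. Against WT1 it was 0.05 for KO2 and 0.26 for KO1. Over the 8732 probe sets above background on all arrays it was -0.02, 0.02, -0.03 and 0.0060 in the same order. Without IL-4 the 26 genes gave 0.38, 0.50, 0.04 and -0.03, beside 0.13, 0.08, -0.05 and -0.09 over the 8732. For the 6 measured mevalonate genes, among them Mvk below background, the median against WT1 with IL-4 was 0.27 for KO2 and 0.41 for KO1. It was 0.13 for KO2 and -0.14 for KO1 without IL-4. Both KO clones were farther from WT2 than from WT1 in the median of the 33 genes.

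**Figure D3:**
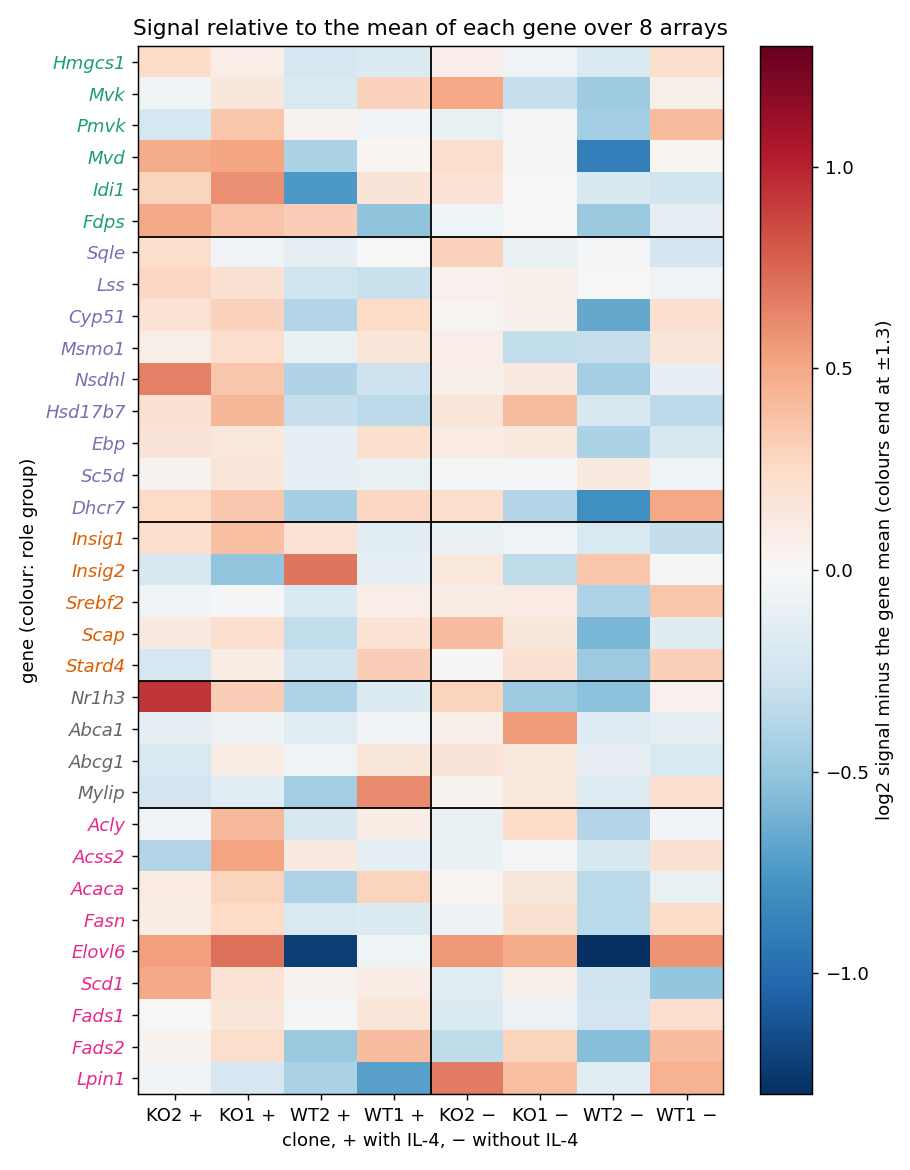
Colours show the log2 signal of each gene (rows, in the order of the steps) on each array (columns, KO2, KO1, WT2 and WT1 with IL-4, then without) minus the mean of that gene over the 8 arrays; the colours end at 1.3 in either direction. The 2 WT2 columns are the bluest, with a mean over the 33 genes of -0.22 with IL-4 and -0.36 without, while the other 6 columns have means between 0.01 and 0.22.

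Single genes differed in which clones set them apart. Nsdhl stood at 13.80 in KO2 and 13.51 in KO1, against 12.75 in WT2 and 12.88 in WT1, with IL-4, and at 13.22 and 13.26, against 12.71 and 13.04, without. All KO values were above all WT values in both treatments. The difference was 0.84 with IL-4 (SE 0.220, interval 0.34 to 1.34, adjusted p = 0.994 from limma) and 0.36 without (interval -0.14 to 0.87). Here WT1 was low as well, and without WT2 the difference was 0.78 with IL-4 and 0.20 without.

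Hsd17b7, a sterol ketoreductase acting with Nsdhl, was as clearly apart. Its signal was 12.43 and 12.66 in KO2 and KO1, against 11.94 and 11.89 in WT2 and WT1, with IL-4, and 12.39 and 12.64, against 12.02 and 11.89, without. The 4 KO arrays lay above the 4 WT arrays with a gap between them. The difference was 0.63 with IL-4 and 0.55 without (SE 0.210, interval 0.08 to 1.03, adjusted p = 0.993 from limma). Scap differed by 0.65 without IL-4 (interval 0.06 to 1.24, adjusted p = 0.993), at 10.43 and 10.16 in KO2 and KO1, against 9.42 and 9.86 in WT2 and WT1. With IL-4 its KO arrays (10.14 and 10.23) lay on either side of WT1 (10.19).

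Idi1 and Mvd were above WT in KO cells with IL-4, and WT2 was the lowest array in both. Idi1 stood at 12.11 and 12.41 in KO2 and KO1, against 11.07 in WT2 and 11.99 in WT1 (difference 0.73, interval 0.03 to 1.43, adjusted p = 1.00), and Mvd, the mevalonate diphosphate decarboxylase, at 10.25 and 10.27, against 9.35 and 9.79 (0.69, interval -0.03 to 1.41). Without WT2 these differences were 0.27 and 0.47. Without IL-4 Idi1 stood at 11.99 and 11.81 in KO2 and KO1, against 11.61 and 11.56 in WT2 and WT1, and Mvd at 9.99 and 9.78, against 8.87 and 9.79, so that only Idi1 kept its clones apart. Insig2 was the one gene lower in both KO clones, at 7.84 and 7.54 in KO2 and KO1, against 8.75 in WT2 and 7.93 in WT1 with IL-4 (-0.65, interval -1.38 to 0.08), and -0.24 without WT2. Without IL-4 its KO2 value (8.19) lay between those of WT2 (8.42) and WT1 (8.04). Nr1h3 stood at 7.30 in KO2 with IL-4, its single value above background, against 6.68 in KO1, 5.97 in WT2 and 6.19 in WT1.

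The fatty acid elongase Elovl6 had the widest range of the 33 genes, 2.32 over the 8 arrays. It stood at 9.58 in KO2, 9.76 in KO1, 7.83 in WT2 and 8.997 in WT1 with IL-4, and at 9.62, 9.53, 7.44 and 9.63 without. WT2 was lowest in both treatments, and without IL-4 WT1 lay at the level of the KO clones. The KO minus WT difference was 1.26 with IL-4 (adjusted p = 1.00 from limma) and 1.04 without (0.993), and it turned on which WT clone was used. Without WT1 it was 1.84 with IL-4 (adjusted p = 0.0238) and 2.13 without (0.0231), and without WT2 it was 0.67 and -0.06. Each of these fits has 1 WT array per treatment, which is assumed to vary like the KO clones, so the values without WT1 set the KO clones against WT2 and not against WT cells.

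**Figure D4:**
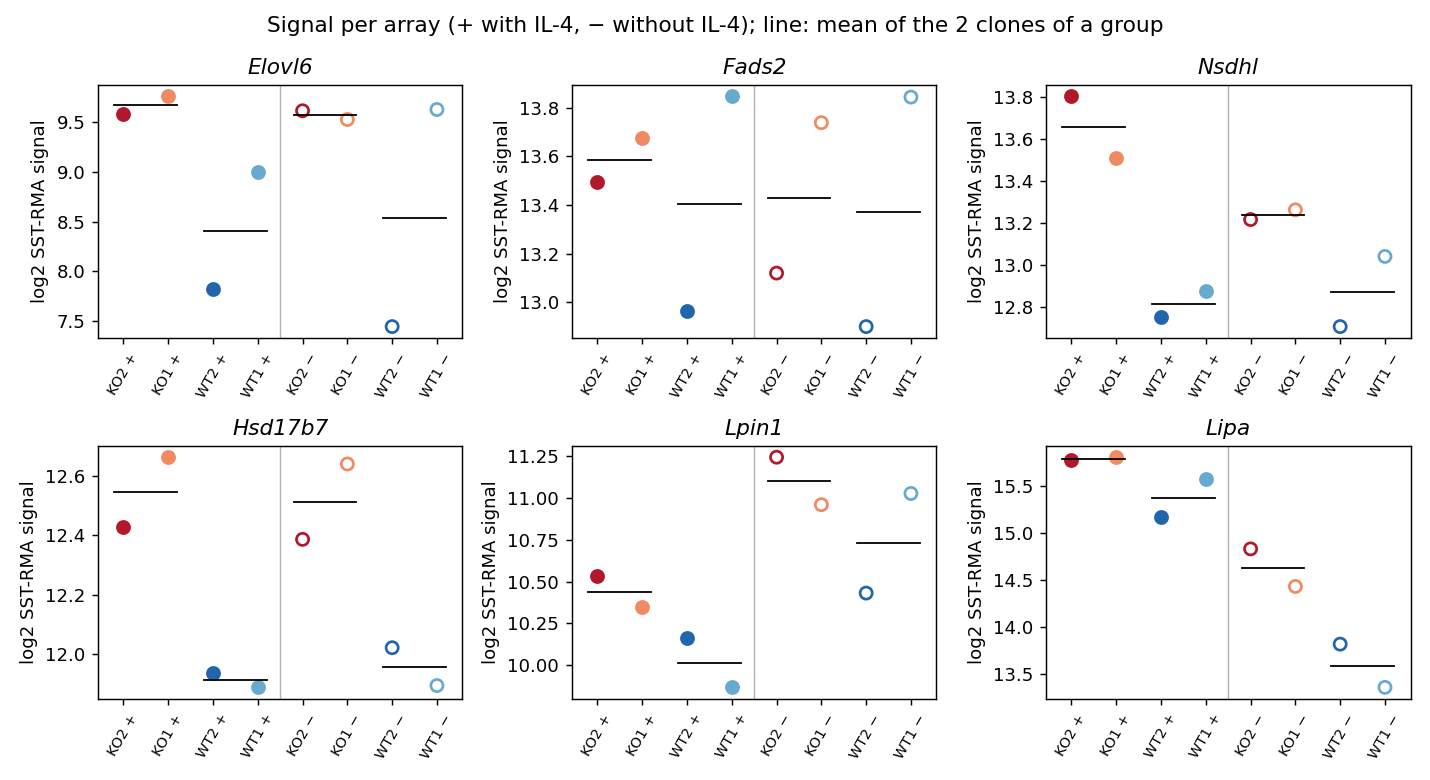
Points are the log2 SST-RMA signal of 5 of the 33 genes and of Lipa on each array, in the order KO2, KO1, WT2 and WT1 with IL-4 (+, filled) and then without (−, open); a line is the mean of the 2 clones of a group, and each panel has its own axis. WT2 is low for Elovl6 (7.83 and 7.44) and Fads2 (12.96 and 12.90), both KO clones are above both WT clones for Nsdhl and Hsd17b7, and all clones are higher with IL-4 for Lipa.

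The clones of one genotype were compared with their 2 arrays as repeats, a test that compares these clones and not genotypes. WT2 and WT1 differed in 769 of 22206 probe sets (3.46%) and in 559 of the 8732 probe sets above background on all arrays (6.4%). Of the 33 genes 2 passed (6.06%), both lower in WT2, against 1.95% of all probe sets lower. Both are among the 26 detected genes, of which they make 7.69%, against 3.54% of detected probe sets lower. Elovl6 was 3.20-fold lower in WT2, with a log2 difference of -1.68 (SE 0.263, interval -2.28 to -1.08, adjusted p = 0.0136 from limma), and passed under each of the alternatives tried, with adjusted p between 0.00256 and 0.0338. Fads2, a desaturase of polyunsaturated fatty acids, stood at 12.96 in WT2 and 13.85 in WT1 with IL-4, and at 12.90 and 13.84 without. Its difference was -0.91 (SE 0.202, interval -1.37 to -0.45, adjusted p = 0.0475), which was lost after quantile normalization (0.0511) and with a separate IL-4 effect for each genotype (0.102). The KO clones held Fads2 at 13.49 in KO2 and 13.68 in KO1 with IL-4, and at 13.12 and 13.74 without.

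Of the cholesterol genes none passed in this comparison. Dhcr7 stood at 10.34 in WT2 and 11.05 in WT1 with IL-4, and at 9.98 and 11.27 without (-1.0, SE 0.254, interval -1.58 to -0.42, adjusted p = 0.0757 from limma). Cyp51 stood at 12.43 in WT2 and 13.07 in WT1 with IL-4, and at 12.14 and 13.01 without (-0.76, SE 0.190, interval -1.19 to -0.32, adjusted p = 0.0720). The KO2 and KO1 values were 11.03 and 11.13 for Dhcr7 and 12.99 and 13.11 for Cyp51 with IL-4, and 11.01 and 10.40 for Dhcr7 and 12.84 and 12.87 for Cyp51 without. In both genes WT2 was below WT1 and both KO clones in each treatment. Stard4 stood at 9.21 in WT2 and 9.78 in WT1 with IL-4, and at 8.99 and 9.78 without, with the KO clones between 9.25 and 9.66. Smaller differences with an unadjusted p under 0.05 were those of Stard4 (-0.68), Mvd (-0.68), Srebf2 (-0.52) and Acaca (-0.47), and of Insig2 in the other direction (0.60). With Mylip, which was below background, that made 10 of 33 genes (30.3%), against 17.4% of all probe sets. Among detected ones it was 9 of 26 genes, against 2449 of 8732 probe sets.

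WT2 was below WT1 in both treatments in 20 of 33 genes (60.6%), against 28.6% of all probe sets, and above it in 4 (12.1%), against 26.7%. Detected genes as a whole were shifted the same way, and 41.1% of the 8732 probe sets above background were lower in WT2 in both treatments, against 16 of the 26 detected genes (61.5%). The median WT2 minus WT1 difference of the 33 genes was -0.20 with IL-4 and -0.40 without, beside -0.02 and -0.19 over those 8732. How far this shift of detected genes enters the values of single genes was not tested.

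**Figure D5:**
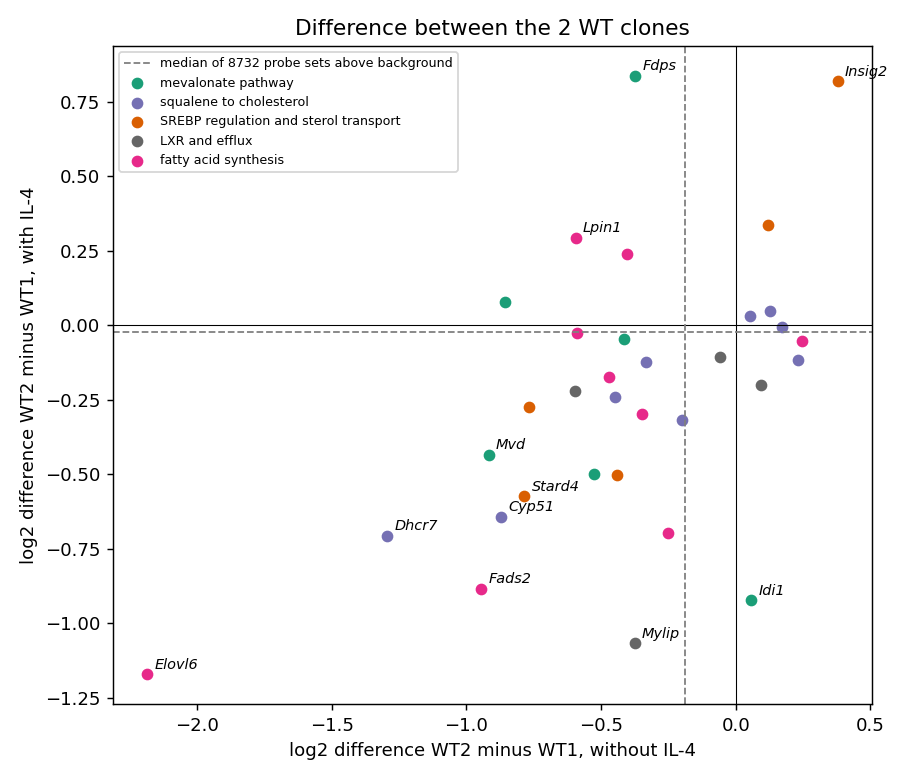
Each point is 1 of the 33 genes, coloured by its step, with the log2 difference WT2 minus WT1 without IL-4 on the horizontal axis and with IL-4 on the vertical axis; dashed lines are the medians of the 8732 probe sets above background on all arrays, -0.19 and -0.02. Of the 33 points 20 lie in the lower left field, with Elovl6 farthest out at -2.18 and -1.17, and 4 in the upper right, Insig2 among them.

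KO2 and KO1 were closer to each other. Between them 0 of 33 genes passed, against 13 of 22206 probe sets (0.0585%), and 1, Nr1h3, had an unadjusted p under 0.05, against 4.68%. The median difference was -0.05. KO2 was below KO1 in both treatments in 15 of 33 genes (45.5%), against 26.1% of all probe sets, and above it in 5 (15.2%), against 26.2%. Among the 26 detected genes it was below in 12 (46.2%), against 28.4% of detected probe sets, and above in 4 (15.4%), against 29.6%. The largest among genes detected in both were those of Fads2 (-0.40, interval -0.86 to 0.06), Acly (-0.40, interval -0.82 to 0.02) and Insig2 (0.38, interval -0.12 to 0.88). Acly, which supplies cytosolic acetyl-CoA, stood at 13.31 in KO2 and 13.77 in KO1 with IL-4, and at 13.26 and 13.60 without. The WT clones stood lower than KO1 throughout, at 13.15 in WT2 and 13.45 in WT1 with IL-4, and at 12.97 and 13.32 without. Pmvk, the phosphomevalonate kinase, stood at 7.64 in KO2 and 8.22 in KO1 with IL-4, and at 7.76 and 7.85 without (-0.33, interval -0.93 to 0.26).

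A further list of 28 genes of the same routes held sterol uptake, storage and transport, NADPH supply and lipogenic regulators, of which 22 were measured and 18 were above background on all 8 arrays. The others were not analysed here. With IL-4 1 of the 22 rose and none fell, against 0.126% of all probe sets higher and 0.0405% lower. This was Lipa, the lysosomal acid lipase that frees cholesterol from its esters, at 15.78, 15.81, 15.17 and 15.58 with IL-4 in KO2, KO1, WT2 and WT1, against 14.83, 14.43, 13.82 and 13.36 without. All 4 values with IL-4 lay above all 4 without, and the effect was 2.78-fold (log2 difference 1.47, SE 0.184, adjusted p = 0.0273 from limma). It was at least 0.94 on the log2 scale in each clone. The call was kept with clones as a fixed block (adjusted p = 0.0258 from limma) and as a random block (0.0161). It was lost without WT1, without KO1 and without KO2, where the differences were 1.26, 1.37 and 1.58. Without WT2 the difference was 1.69. Each fit without a clone has 1 array in some groups. No gene of the further list passed between KO and WT.

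Between the WT clones 2 of these 22 were higher and 1 lower in WT2, against 1.51% and 1.95% of all probe sets. Mid1ip1, which promotes polymerization of acetyl-CoA carboxylase, stood at 11.39 in WT2 and 8.15 in WT1 with IL-4, and at 10.95 and 8.86 without (2.67, SE 0.304, adjusted p = 0.00397). The KO clones stood at 9.53 in KO2 and 9.18 in KO1 with IL-4, and at 10.22 and 9.94 without, between the WT clones in both treatments. Npc1, the lysosomal cholesterol exporter, stood at 12.38 in WT2 and 11.34 in WT1 with IL-4, and at 11.52 and 10.75 without (0.90, adjusted p = 0.0431), with KO2 and KO1 at 11.81 and 11.61 with IL-4 and both at 10.98 without. Fdft1, the squalene synthase, stood at 11.39 in WT2 and 12.15 in WT1 with IL-4, and at 11.23 and 12.35 without (-0.94, adjusted p = 0.0466), with KO2 and KO1 at 11.82 and 12.04 with IL-4 and at 11.75 and 11.73 without. Both of these calls were lost with a separate IL-4 effect for each genotype (0.0991 and 0.0954). Fdft1 lies on chromosome 14, where 300 genes had a mean signal over the 8 arrays above the mean background. Their median WT2 minus WT1 difference was -0.52 with IL-4 and -0.74 without. None of the 33 genes lies on that chromosome.

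Between the KO clones 1 of the 22 passed, higher in KO2, against 0.036% of all probe sets. Me1, the malic enzyme that supplies NADPH for fatty acid synthesis, stood at 11.24 in KO2 and 8.35 in KO1 with IL-4, and at 11.67 and 8.17 without. It was 9.19-fold higher in KO2 (log2 difference 3.20, SE 0.321, adjusted p = 0.0103). The WT clones stood at 8.22 in WT2 and 6.85 in WT1 with IL-4, and at 8.22 and 8.08 without, below KO2 in both treatments.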

How the data were processed

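RNA of 2 Gpr137b-KO and 2 Gpr137b-WT clones, with and without IL-4, was hybridized to 8 mouse Clariom S arrays. The authors normalized the scans by SST-RMA in the Transcriptome Analysis Console 4.0 (RMA in the submitters' processing notes). The deposited table gives linear intensities, of which the log2 was taken. The table holds 28846 rows, 6640 of them controls, which left 22206 probe sets. Of these 19572 have 1 gene symbol in the platform annotation and 2634 are unnamed here. The genome build of the authors was not given in the sources used here. Promoters and chromosomes are from RefSeq GRCm38.p6.

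Groups were compared with limma 3.58.1 in R 4.3.3, with 1 mean for each of 4 groups and no block. Clones of a genotype were compared in a fit of 4 clones and 1 common IL-4 effect. P-values were adjusted by Benjamini-Hochberg over all 22206, with a threshold of 0.05. Both fits were tested on simulated data with independent noise on each array, for the averaged IL-4 effect and for WT2 minus WT1 only. A correlation between the arrays of a clone was not simulated. The number of arrays limits precision. In the comparisons of groups, p-values rest on the spread between the clones of a group. In the comparisons of clones, they rest on the spread between the arrays of a clone that the common IL-4 effect leaves. The gene list, the further lists and the tests were chosen with earlier results of these data known. Values on every array are given for genes past the threshold and for up to 6 genes per comparison with the largest difference among those alike in every pair of arrays, except those below background.

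The labels tie the arrays of a clone to one another. Their deviations from the group mean correlated at 0.354 in WT and 0.161 in KO clones over all probe sets, and a block for the clone was one alternative. The others were eBayes with trend and robust, quantile normalization, removal of the dimmest 40% of probe sets, and removal of each clone.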

Additional observations from a re-analysis of the deposited data

Results flagged for a closer look

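In 5 of the 26 detected genes the IL-4 difference had one sign in both KO clones and the opposite sign in both WT clones. Hmgcs1 was higher with IL-4 in KO2 and KO1 (0.15 and 0.13) and lower in WT2 and WT1 (-0.04 and -0.41), a difference of 0.37 between genotypes. Lss was higher in KO2 and KO1 (0.22 and 0.13) and lower in WT2 and WT1 (-0.27 and -0.24), a difference of 0.43. Sc5d was higher in KO2 and KO1 (0.07 and 0.18) and lower in WT2 and WT1 (-0.22 and -0.04), a difference of 0.25. Hsd17b7 had the same order at a smaller size (0.04 and 0.02 in KO2 and KO1, -0.09 and -0.01 in WT2 and WT1), a difference of 0.08. Stard4 ran the other way, lower in KO2 and KO1 (-0.23 and -0.10) and higher in WT2 and WT1 (0.22 and 0.01), a difference of -0.28. None passed the test of the difference itself (adjusted p = 1.00 from limma for each, with the lowest unadjusted p at 0.15, for Lss). Such a split of signs was seen in 5 of 26 detected genes (19.2%), against 6.46% of the 8732 probe sets above background on all arrays. Among the genes not detected throughout, Abca1 and Abcg1 were split in the same direction as Stard4.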

How the results depend on the processing

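No call on the 33 genes for IL-4, in either genotype or averaged, changed under any alternative tried. With the clone as a fixed replicate block, which cannot estimate KO minus WT, the probe sets past the threshold were 128 for the averaged IL-4 effect (37 as reported), 25 in KO (7) and 35 in WT (8); with the clone as a random block both genotypes had 13. Quantile normalization gave 4 for IL-4 in KO and 2 for KO minus WT without IL-4 (4 as reported). Without the dimmest 40% of probe sets, KO minus WT gave 3 with IL-4 (7 as reported) and 1 without, and IL-4 gave 4 in KO and 5 in WT. With a trend and robust eBayes, IL-4 in KO gave 12, KO2 minus KO1 gave 40 (13) and WT2 minus WT1 gave 1565 (769), with 5 of the 33 genes past the threshold (2 as reported), Cyp51, Dhcr7 and Srebf2 being added. With separate IL-4 effects, a replicate block too, WT2 minus WT1 gave 438 and 1 of the 33, Elovl6, which was also the 1 left after quantile normalization.

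Leaving out each clone in turn gave 3 to 155 probe sets for the averaged IL-4 effect, 0 to 47 in KO, 0 to 26 in WT, 0 to 143 for KO minus WT with IL-4 and 0 to 100 without. The count among the 33 genes for KO minus WT was 0 to 1 in each treatment, the 1 being Elovl6 without WT1, where WT2 alone stands for WT and is assumed to vary like the other groups. Left with 1 WT clone, the genes that did not overlap between genotypes were 25 to 30 with IL-4 (15 as reported) and 27 to 31 without (12), a check chosen after seeing the data, in which fewer arrays make overlap rarer. With IL-4, 29 were higher and 1 lower in KO without WT1 (39.8% and 33.4% of all probe sets), and 14 and 11 without WT2 (34.8% and 34%). Without IL-4, 29 and 2 were so without WT1 (34.6% and 38.4%), and 14 and 13 without WT2 (37.3% and 37.7%). The signal over background limits Mvk, Nr1h3, Abca1, Abcg1, Mylip, Acss2 and Scd1, and the causes of the other changes were not tested.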
